A study of Mus musculus with 12 samples.

Results

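MHC class I molecules pair a polymorphic or non-polymorphic heavy chain with the invariant light chain beta-2 microglobulin (B2m). The genes described here were chosen by name: 8 heavy chain genes (H2-K1, H2-D1, H2-Q4, H2-Q6, H2-Q7, H2-T22, H2-T23 and H2-M3) and B2m, 9 of the 54532 genes in the deposited table. They are set by name and function and not by a threshold on a measured value, though earlier results of these data were known when they were chosen. Of the 9, 7 had at least 1 FPKM (fragments per kilobase of gene model, scaled by library depth) in at least 3 libraries and were tested, and H2-Q6 and H2-Q7 did not.

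The cells were MC38, a mouse colorectal cancer line, in 4 groups of 3 libraries. One group received 3 µM nintedanib together with 8 Gy of X-rays, one received 8 Gy alone, one received 3 µM nintedanib alone, and the controls received neither. Treatment lasted 24 hours, no time or vehicle is named for the controls, and the submitters state that the whole experiment was run independently 3 times. Nintedanib is a tyrosine kinase inhibitor of growth factor receptors. All cultures are 1 cell line, and the labels name no other cells.

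Class I molecules carry peptides from the cell's own proteins to the surface, where CD8 T cells read them. H2-K1 and H2-D1 encode the classical heavy chains that present most peptides to CD8 T cells. H2-T23 (Qa-1) presents leader peptides and engages NKG2A receptors on natural killer cells, H2-M3 presents formylated peptides, H2-T22 is bound by some gamma delta T cells, and the H2-Q genes encode Qa proteins such as Qa-2. A heavy chain needs B2m to fold and reach the surface. Interferons, NF-kB and the transactivator NLRC5 are known to act on class I promoters, and tumours that lose class I escape CD8 T cells.

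Libraries held 16103528 to 18196615 fragments, of which the 9 genes took 0.163 to 0.335%. Markers bear on the label: of 7 colorectal epithelial markers 1, Cdh1, reached 1 FPKM and Epcam had no fragment in any library, while all 5 mesenchymal markers reached it. Of 6 leukocyte markers only Cd68, a lysosomal glycoprotein of macrophages, reached 1 FPKM. Ptprc, carried by all leukocytes, was at most 0.0292 FPKM, and Cd3e had no fragment in any library. The summed leukocyte markers, nearly all Cd68, were 16.2 to 19.5 FPKM with the combination, 4.30 to 5.43 with radiation, 13.6 to 14.4 with nintedanib and 3.55 to 4.60 in controls, higher in both nintedanib groups; the part of this in the results below was not tested. The third nintedanib library stood apart, with a mitochondrial share of 2.12%, against 1.23 to 1.64% in the others. In bulk RNA, fewer cells with a transcript and less of it per cell cannot be told apart.

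The heavy chain genes lie on chromosome 17 and B2m on chromosome 2 (GRCm38, deposited coordinates). H2-K1 spans 33996017 to 34000333 on the minus strand, H2-D1 35262730 to 35267499 and H2-Q4 35379617 to 35385290 on the plus strand, and H2-T22 36037128 to 36042747 on the minus strand. H2-T23 (36029773 to 36032855) lies beside H2-T22, and H2-M3 spans 37270220 to 37274484. B2m spans 122147686 to 122153083. All 9 are protein-coding.

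Promoter stretches with known class I elements are shown for 7 of the 9 genes (RefSeq sequences, GRCm38.p6, read 5′ to 3′ on the gene's strand). All 9 genes matched by symbol. H2-M3 and H2-Q7 also held matches, counted below, but are not printed. Whether these letters play a part in the differences between groups was not tested. Capitals mark matches, on either strand, to a kB element that NF-kB binds (GGGATTCCC), an interferon-stimulated response element in 2 spellings (GAAANNGAA, or GAANNGAAA, which was added after the promoters had been read) and an X2-like element (TGACG), part of the module through which NLRC5 acts. No matches overlapped each other. The stretches are chr17:34000374-34000467 (minus strand) for H2-K1, chr17:35262914-35263007 (plus) for H2-D1, chr17:35424668-35424716 (plus) for H2-Q6, chr17:35379454-35379558 (plus) for H2-Q4, chr17:36042750-36042942 (minus) for H2-T22, chr17:36032806-36032834 (minus) for H2-T23 and chr2:122147538-122147623 (plus) for B2m.
H2-K1: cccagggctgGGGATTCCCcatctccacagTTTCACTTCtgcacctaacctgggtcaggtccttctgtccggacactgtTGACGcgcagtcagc
H2-D1: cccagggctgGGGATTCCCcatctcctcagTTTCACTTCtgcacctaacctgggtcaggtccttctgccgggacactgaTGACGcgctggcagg
H2-Q6: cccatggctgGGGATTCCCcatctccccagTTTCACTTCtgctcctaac
H2-Q4: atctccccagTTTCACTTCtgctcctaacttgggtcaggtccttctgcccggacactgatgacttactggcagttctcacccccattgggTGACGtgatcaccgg
H2-T22: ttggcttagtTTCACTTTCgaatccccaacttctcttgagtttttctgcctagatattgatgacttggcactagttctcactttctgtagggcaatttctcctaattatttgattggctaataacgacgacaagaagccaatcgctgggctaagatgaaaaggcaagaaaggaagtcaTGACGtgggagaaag
H2-T23: tcctactgctTTCTCTTTCataaagacac
B2m: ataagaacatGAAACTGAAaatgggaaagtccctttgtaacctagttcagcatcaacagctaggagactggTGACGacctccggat

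The H2-K1 and H2-D1 stretches, each 94 bases, were the same at 87 positions. Upstream of the RefSeq start, 4 of 9 genes held the kB letters (H2-K1, H2-D1, H2-Q6, H2-Q7). The second spelling of the interferon element stood in 6 (these 4, H2-Q4 and H2-M3) and its first spelling in 3 (H2-T22, H2-T23, B2m). The X2-like letters stood in 7, with H2-M3 among them and without H2-Q6 and H2-T23. In H2-Q4 and H2-T22 they began at -73 and -22, with the interferon element at -153 and -190. In H2-K1 these places were -41 and -90, much closer together. At the place that lines up with the H2-D1 match, the H2-Q4 and H2-T22 stretches read tgact instead. Their X2-like capitals therefore mark letters elsewhere and not the X2 place of H2-K1 and H2-D1. By the deposited coordinates H2-D1 begins at 35262730 and H2-T23, on the minus strand, at 36032855. Their stretches therefore lie inside the deposited gene models. Of 32851 RefSeq windows of 250 bases before to 50 after a start, 0.353% held the kB letters, 7.52% and 8.56% the second and first spellings, and 20.8% the X2-like letters. A match describes letters and not a bound site, and no match in these windows does not mean that a factor is absent.

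**Figure D1:**
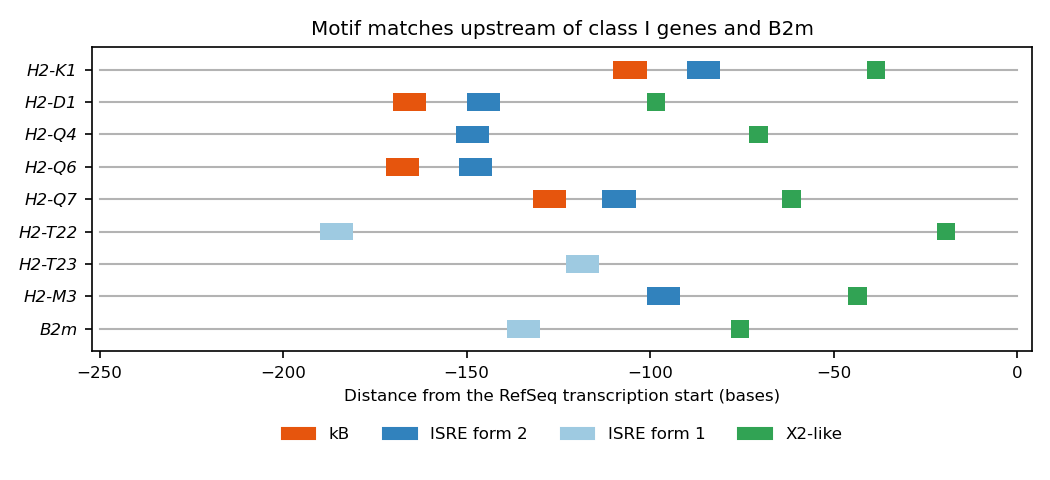
Motif matches upstream of the 9 genes, by distance in bases from the RefSeq transcription start (x axis; 1 row per gene). Orange marks the kB letters, dark and light blue the second and first spellings of the interferon element, and green the X2-like letters. H2-K1, H2-D1 and H2-Q7 show the same order of 3 matches, H2-Q6 the first 2 of them, and the other 5 genes have no kB match.

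Class I transcripts were abundant and came mostly from the classical genes. In controls H2-D1 averaged 288 ± 23.03 FPKM and H2-K1 145 ± 10.9 FPKM (SD, n = 3), and together they made up 90.8 to 92.6% of the summed heavy chain FPKM in every library. H2-Q4 (12.7 ± 0.702), H2-M3 (10.6 ± 1.51), H2-T22 (9.20 ± 0.869) and H2-T23 (2.97 ± 0.307 FPKM) were far lower in controls, and the ranges of H2-M3 over control libraries overlapped those of its neighbours in this order, H2-Q4 and H2-T22. B2m stood above every heavy chain at 646 ± 22.4 FPKM in controls.

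**Figure D2:**
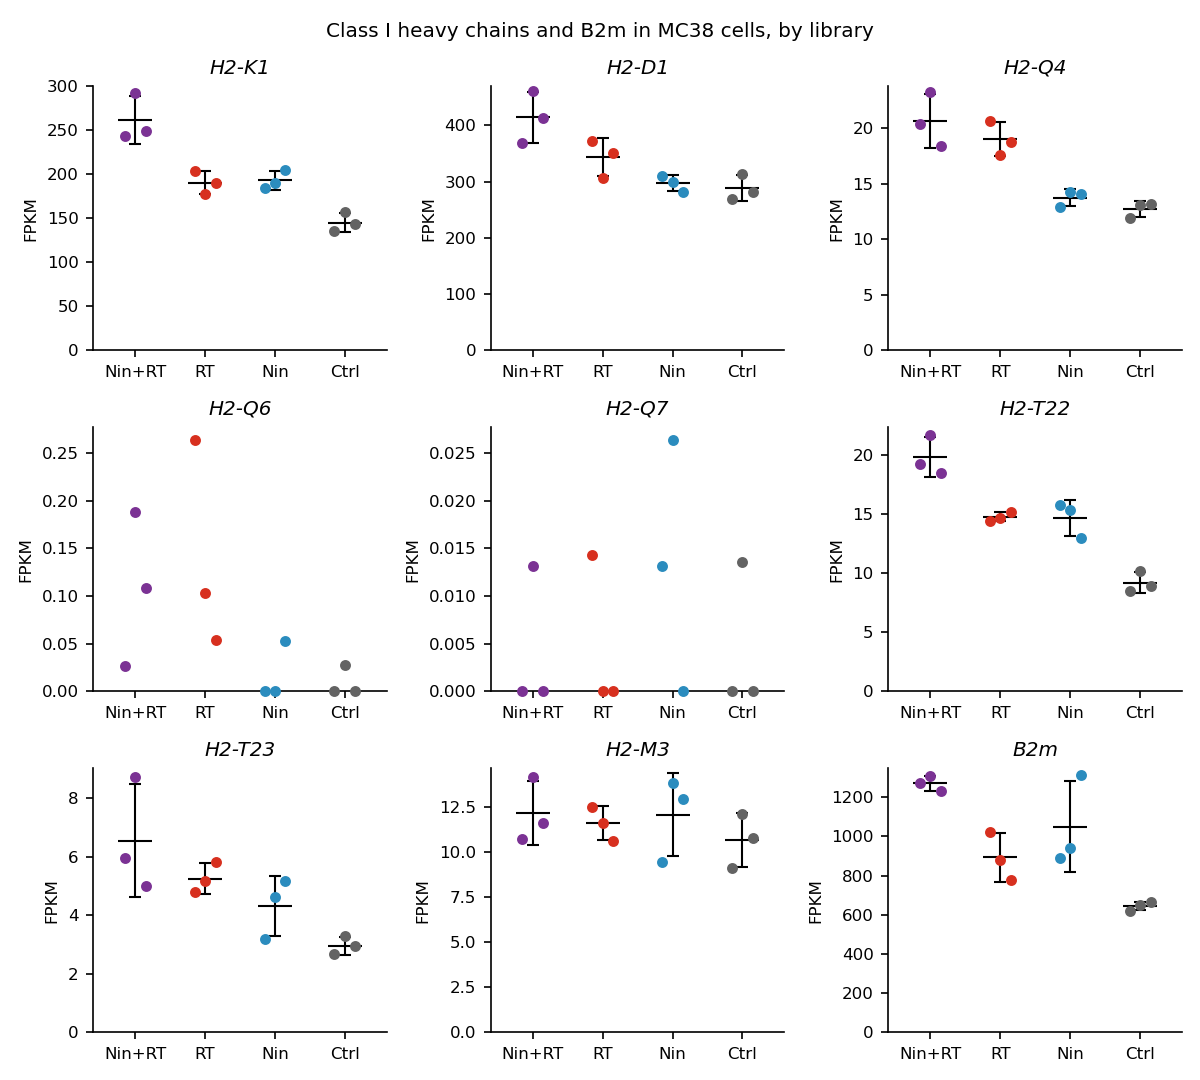
FPKM of each gene (y axis, own scale per panel) in the combination (Nin+RT), radiation (RT), nintedanib (Nin) and control (Ctrl) groups. Points are libraries, and horizontal lines with bars are means ± SD of 3 libraries (not drawn for H2-Q6 and H2-Q7, which were at or near 0). H2-K1 and H2-T22 are highest with the combination, lowest in controls and between these after either treatment alone, while all H2-M3 groups overlap.

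The first question is what the combined treatment did relative to control. Class I heavy chains and B2m were higher: 6 of the 7 tested genes rose and 0 fell, and their groups did not overlap. The exception was H2-M3. The ratio of mean FPKM was 2.21 for H2-T23, 2.15 for H2-T22 and 1.97 for B2m, and the median log2 difference of the 7 was 0.84, against -0.03 over all genes tested. Of the 13012 genes tested, 47.2% were called and 22.3% rose, and 26.7% were higher with no overlap. Differences are between group means of log2(FPKM + 1), called at an adjusted p under 0.05 (limma, Benjamini-Hochberg over all genes tested).

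Radiation against control asks what 8 Gy alone changed. H2-T23, H2-T22, H2-Q4, B2m and H2-K1 rose, 5 of 7 tested genes, with 0 lower, and the same 5 did not overlap the controls. Over all genes 17.9% were called and 8.04% rose, and 17.4% were higher with no overlap. After rescaling FPKM to a common sum, 69.79% of the calls over all genes were higher, against 44.82% as deposited, and 59.9% with voom. H2-D1 had a log2 difference of 0.25 (95% interval 0.02 to 0.48, adjusted p = 0.121) and passed when FPKM were rescaled to a common sum (0.36, adjusted p = 0.0166) or with voom (0.31, adjusted p = 0.0296). The 5 calls became 2 without the first or the third control library, and 3 without the second control library or the first or second radiation library. All genes called, 2334 in the main fit, were 1331 without the second and 1248 without the third control library. They were 1519 without the first and 1145 without the second radiation library. Those of H2-Q4 and H2-T22 were kept in all 20 other settings.

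Nintedanib against control asks what the drug alone changed. B2m, H2-T22 and H2-K1 rose, 3 of 7 tested genes, with 0 lower, and the same 3 did not overlap the controls. Over all genes 41.6% were called and 19.7% rose, and 24.5% were higher with no overlap. After rescaling to a common sum, 60.02% of the calls were higher, against 47.22% as deposited. H2-D1 had a log2 difference of 0.05 (95% interval -0.18 to 0.27, adjusted p = 0.758) and H2-Q4 of 0.10 (-0.09 to 0.30, adjusted p = 0.388). The B2m call was lost with no filter on low values (0.68, adjusted p = 0.0609). H2-D1 was at -0.0033 without the first control library (adjusted p = 0.986). A difference between the nintedanib and radiation groups was not tested.

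The combination against radiation asks what nintedanib added in irradiated cells, and 3 of 7 rose: B2m (0.52, adjusted p = 0.0158), H2-K1 (0.45, adjusted p = 0.00317) and H2-T22 (0.40, adjusted p = 0.00562). Over all genes 34.4% were called and 17.2% rose, and 23.3% were higher with no overlap, as these 3 were. These are the 3 genes that rose with nintedanib in unirradiated cells. The B2m call was lost without the third radiation library (0.42, adjusted p = 0.0650), without the second combination library (0.50, adjusted p = 0.05005), with no filter on low values (0.52, adjusted p = 0.170) and after rescaling to a common sum (0.48, adjusted p = 0.0506). H2-D1 had 0.27 (adjusted p = 0.0661) and passed with voom (0.28, adjusted p = 0.0298) and without the first combination library (0.35, adjusted p = 0.0300).

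The combination against nintedanib asks what radiation added in cells given the drug, and 4 of 7 rose: H2-Q4 (0.55, adjusted p = 0.00654), H2-D1 (0.47, adjusted p = 0.0247), H2-K1 (0.43, adjusted p = 0.0228) and H2-T22 (0.41, adjusted p = 0.025). Over all genes 5.55% were called and 3.17% rose, and 10.4% were higher with no overlap, as these 4 were. The 4 calls became 1 without the second nintedanib or the second combination library, and 0 when only these 6 libraries were fitted. All genes called were then 365, 263 and 83, against 722 in the main fit.

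**Figure D3:**
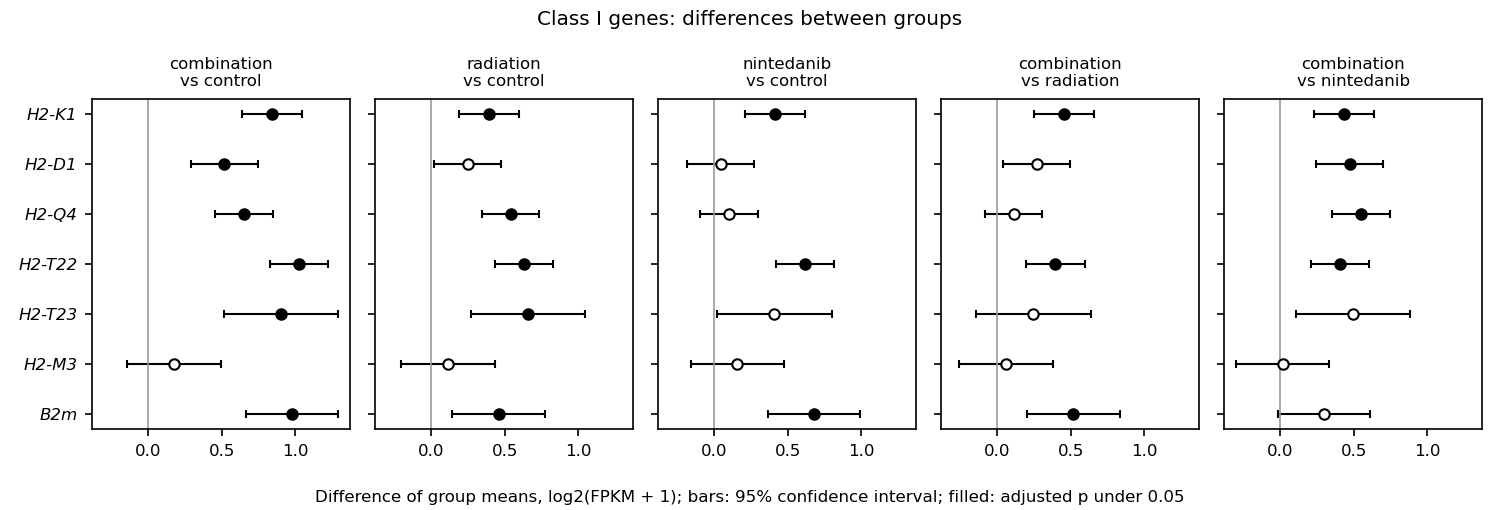
Differences of group means on the log2(FPKM + 1) scale (x axis) for the 7 tested genes (rows) in 5 comparisons (panels). Points are estimates, bars 95% confidence intervals, and filled points passed an adjusted p of 0.05. Of 7 points, 6 are filled for the combination against control, 5 for radiation, 3 for nintedanib, 3 for the combination against radiation and 4 for the combination against nintedanib.

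Whether the effects of both treatments added up was asked by an interaction term, the nintedanib difference in irradiated cells minus that in unirradiated cells. With limma 0 of 7 genes passed, 0 at an unadjusted p under 0.05 and 0 with voom, and 0.00769% of all genes were called. The estimate was 0.04 for H2-K1 (95% interval -0.25 to 0.33), 0.22 for H2-D1 (-0.10 to 0.55), -0.22 for H2-T22 (-0.50 to 0.06) and -0.16 for B2m (-0.60 to 0.28). On this log scale the intervals of H2-K1 and B2m leave room for sizeable departures from additivity in either direction. That of H2-D1 leaves room mainly for a positive departure and that of H2-T22 mainly for a negative one.

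Among the classical heavy chains, H2-K1 was at 243, 292 and 249 FPKM with the combination, 204, 178 and 189.9 after radiation, 185, 189.6 and 205 with nintedanib, and 135, 157 and 143 in controls. The combination libraries lay above all others and the controls below all others, while radiation and nintedanib overlapped. The combination raised H2-K1 by 0.84 (SE 0.092, adjusted p = 2.76e-05), radiation by 0.39 (SE 0.092, adjusted p = 0.0154) and nintedanib by 0.41 (SE 0.092, adjusted p = 0.00419). H2-D1 was at 369, 460.0 and 413 FPKM with the combination, 373, 307 and 350.0 after radiation, 309.8, 299.7 and 281 with nintedanib, and 269, 314 and 282 in controls. Its combination libraries lay above the nintedanib and control libraries and overlapped radiation. H2-D1 rose by 0.52 with the combination (SE 0.104, adjusted p = 0.00171).

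The balance of the classical genes was given by a ratio. The FPKM ratio of H2-K1 to H2-D1 was 0.659, 0.636 and 0.604 with the combination, 0.548, 0.581 and 0.543 after radiation, 0.596, 0.633 and 0.729 with nintedanib, and 0.503, 0.500 and 0.509 in controls. Each treated group lay above the control group with no overlap. The combination and nintedanib ratios overlapped (exact two-sided permutation p = 0.9). Each difference from control had p = 0.1 in an exact two-sided permutation test over libraries, the smallest that 3 against 3 can give, and 0.167 adjusted over 10 ratio comparisons.

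Among non-classical heavy chains, H2-T22 was at 19.2, 21.7 and 18.5 FPKM with the combination, 14.4, 14.7 and 15.2 after radiation, 15.8, 15.4 and 12.9 with nintedanib, and 8.50, 10.2 and 8.92 in controls. Its order was that of H2-K1, with radiation and nintedanib overlapping between the combination and the controls. It rose by 1.03 with the combination (SE 0.0898, adjusted p = 5.43e-06), 0.63 with radiation (SE 0.0898, adjusted p = 0.00127) and 0.62 with nintedanib (SE 0.0898, adjusted p = 0.000243). Of its 50-base transcript windows in GENCODE M21, 34.5% also stood in another gene, mostly H2-T10, and 8.86% of its 100-base windows did, so how reads were shared between these is uncertain. H2-T10 itself was at 1.71 FPKM with the combination, 1.35 with radiation, 0.950 with nintedanib and 0.489 in controls.

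H2-Q4 was at 20.3, 23.2 and 18.4 FPKM with the combination, 20.6, 17.6 and 18.8 after radiation, 12.9, 14.2 and 14.1 with nintedanib, and 11.9, 13.1 and 13.2 in controls. The irradiated groups overlapped each other and lay above both unirradiated groups, which also overlapped. H2-Q4 rose by 0.65 with the combination (SE 0.0891, adjusted p = 0.000129) and 0.54 with radiation (SE 0.0891, adjusted p = 0.00274). Of its 50-base windows 21.8% also stood in another gene, and 2.16% of its 100-base windows did.

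H2-T23 was at 5.95, 8.73 and 4.99 FPKM with the combination, 4.78, 5.17 and 5.81 after radiation, 3.18, 4.62 and 5.17 with nintedanib, and 2.67, 3.28 and 2.95 in controls. Only the combination and radiation groups cleared the controls. H2-T23 rose by 0.90 with the combination (SE 0.177, adjusted p = 0.0015) and 0.66 with radiation (SE 0.177, adjusted p = 0.027). It had 0.41 with nintedanib (adjusted p = 0.0856), which passed without the first nintedanib library (0.57, adjusted p = 0.0214) and without the second combination library (0.41, adjusted p = 0.0369), among 20 settings with adjusted p of 0.0214 to 0.251. The radiation call was lost in 6 of 20 settings (adjusted p up to 0.0849). It rests on 128 to 450 fragments per library.

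H2-M3 was at 10.7, 14.1 and 11.6 FPKM with the combination, 12.5, 11.6 and 10.6 after radiation, 9.44, 13.8 and 12.9 with nintedanib, and 9.09, 12.1 and 10.8 in controls. All 4 groups overlapped. Its log2 differences from control were 0.18 with the combination (95% interval -0.14 to 0.49, adjusted p = 0.349), 0.12 with radiation (-0.20 to 0.43, adjusted p = 0.622) and 0.16 with nintedanib (-0.16 to 0.47, adjusted p = 0.412). It shared 0.576% of its 50-base windows with other genes, the least of the heavy chains.

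H2-Q6 and H2-Q7, which encode Qa-2 antigens, were at or near 0. H2-Q6 had 1, 7 and 4 fragments with the combination, 9, 4 and 2 after radiation, 0, 0 and 2 with nintedanib, and 0, 1 and 0 in controls. H2-Q7 had at most 2 fragments in any library. Of their 50-base windows, 32% and 26.4% stood in other genes, more than in H2-K1 (9.63%) or H2-D1 (12.8%). This is not particular to them, as H2-T22 shared 34.5% and H2-Q4 21.8% at far higher FPKM. At 100 bases the shares were 10.8% for H2-Q6, 12% for H2-Q7, 0.957% for H2-K1 and 3.59% for H2-D1. The read length is not given in the sources used here. How the authors counted reads that map to several genes is not given in the sources used here, and its part in these values was not tested.

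B2m was at 1271, 1308 and 1234 FPKM with the combination, 1025, 877 and 776 after radiation, 889.9, 942 and 1314 with nintedanib, and 622, 649 and 666 in controls. All treated libraries lay above the controls, and the combination lay above radiation, while nintedanib overlapped radiation through its first and second libraries and the combination through the remaining one. B2m rose by 0.98 with the combination (SE 0.143, adjusted p = 0.000207), 0.46 with radiation (SE 0.143, adjusted p = 0.0471) and 0.68 with nintedanib (SE 0.143, adjusted p = 0.00283). The radiation call was lost in 11 of 20 other settings (adjusted p 0.0103 to 0.291). Without the third nintedanib library the nintedanib difference was 0.50 (adjusted p = 0.00459), and the combination exceeded nintedanib by 0.47 (adjusted p = 0.0458), against 0.30 (adjusted p = 0.251) with it.

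The summed FPKM of the 8 heavy chains was 735 ± 77.8 with the combination, 584 ± 47.9 after radiation, 535 ± 3.01 with nintedanib and 469 ± 37.1 in controls (SD, n = 3). The FPKM ratio of B2m to this sum was 1.90, 1.59 and 1.73 with the combination, 1.63, 1.64 and 1.31 after radiation, 1.66, 1.75 and 2.47 with nintedanib, and 1.43, 1.27 and 1.44 in controls. The combination and nintedanib ratios lay above the controls (exact two-sided permutation p = 0.1 each, the smallest possible, and 0.167 adjusted), and the radiation ratios overlapped them (p = 0.3).

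**Figure D4:**
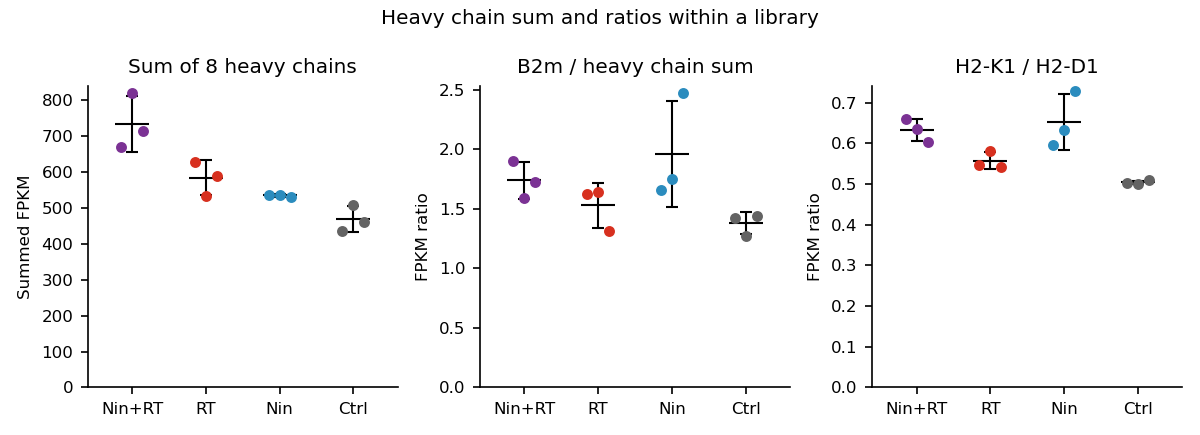
Summed FPKM of the 8 heavy chains (left), FPKM ratio of B2m to that sum (middle) and FPKM ratio of H2-K1 to H2-D1 (right) by group. Points are libraries and lines with bars are means ± SD of 3 libraries. The sum is highest with the combination, and the H2-K1 to H2-D1 ratio of controls, near 0.504, lies below every treated library.

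Across the 12 libraries the tested genes varied together to different degrees. Pearson's r of log2(FPKM + 1) was 0.936 for H2-K1 with H2-T22, 0.915 for H2-K1 with B2m and 0.863 for H2-K1 with H2-D1. It was 0.617 for H2-D1 with B2m and 0.651 for H2-Q4 with B2m. H2-M3 had 0.394 to 0.622 with the other 6. Of genes outside the set, Isoc2b (0.967), Pkp3 (0.959), Tmem38a (0.948), the immunoproteasome subunit Psmb8 (0.945) and Cotl1 (0.944) were most like the heavy chain sum. Prdx1 (0.971), Nprl2 (0.969), Dstn (0.964), Tspan3 (0.956) and Syap1 (0.952) were most like B2m. These values describe 12 libraries that share 4 treatments and their scaling.

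Genes of peptide loading, which supply peptides and chaperone the heavy chain, rose in 6 of 8 cases with the combination, 5 with radiation and 4 with nintedanib, and 0 fell in any of these. Over all genes tested 22.3%, 8.04% and 19.7% rose in these comparisons. The median log2 difference of the 8 was 0.44, 0.26 and 0.13 in that order. Tapbp (tapasin), which bridges the heavy chain to the transporter, was at 72.4 ± 7.60 FPKM with the combination, 54.9 ± 4.78 with radiation, 59.7 ± 5.22 with nintedanib and 39.4 ± 1.01 in controls (SD, n = 3; log2 differences 0.86, 0.47 and 0.58). The transporter genes Tap1 and Tap2 rose with the combination (0.38 and 0.51) and radiation (0.38 and 0.55), and had 8.24 and 10.9 FPKM with nintedanib against 7.87 and 10.4 in controls. The chaperone Calr rose with the combination (0.70) and nintedanib (0.52), and Pdia3 with all 3 (0.52, 0.25 and 0.45).

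Added to radiation, nintedanib raised 3 of these 8 genes (Tapbp 0.39, Calr 0.59 and Pdia3 0.26) and lowered the peptide-trimming enzyme Erap1 (-0.32, adjusted p = 0.0181), where 34.4% of all genes were called and 17.2% rose. Added to nintedanib, radiation gave 0 calls with limma, where 5.55% of all genes were called. It gave 3 at an unadjusted p under 0.05 and 1 with voom, for which no share over all genes is given here.

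Immunoproteasome genes, whose products cut peptides for class I, rose in 3 of 5 cases with the combination, 2 with radiation and 2 with nintedanib, with 0 lower, against 22.3%, 8.04% and 19.7% of all genes that rose. The catalytic subunit Psmb8 was at 13.7 ± 1.89 FPKM with the combination, 10.2 ± 1.14 with radiation, 8.27 ± 1.03 with nintedanib and 6.10 ± 1.27 in controls (log2 differences 1.06, 0.66 and 0.39). Psmb9 rose with the combination (0.69) and radiation (0.64), and the activator subunit Psme1 with the combination (0.54) and nintedanib (0.32).

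**Figure D5:**
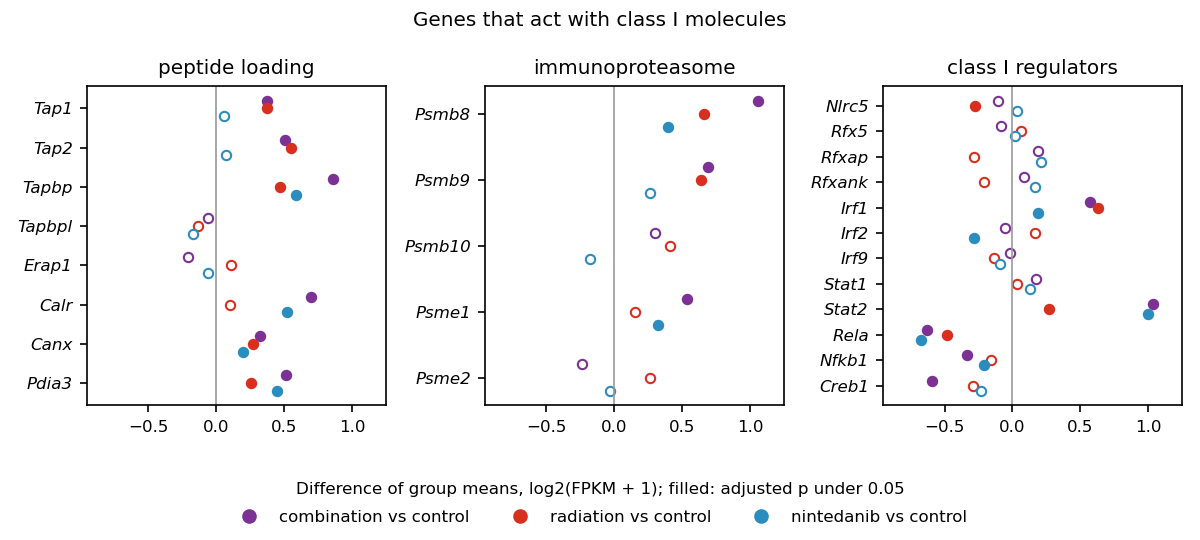
Differences of group means from control on the log2(FPKM + 1) scale (x axis) for genes of peptide loading, the immunoproteasome and class I regulation (rows). Colours give the combination, radiation and nintedanib, and filled points passed an adjusted p of 0.05. Psmb8 and Tapbp are filled and to the right of 0 in all 3 comparisons, and Rela is filled and to the left of 0 in all 3.

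Among regulators of class I transcription, 2 of 12 rose and 3 fell with the combination, 2 rose and 2 fell with radiation, and 2 rose and 3 fell with nintedanib. Over all genes 47.2%, 17.9% and 41.6% were called in these comparisons, so 5 of 12 called with the combination and with nintedanib is no more than the share over all genes. Irf1, an interferon-induced factor, rose to 11.4 ± 0.185 FPKM with the combination, 11.96 ± 0.545 with radiation and 8.50 ± 0.566 with nintedanib, against 7.35 ± 0.335 in controls (0.57, 0.63 and 0.19). Stat2, a subunit of the interferon-activated factor ISGF3, rose by 1.04, 0.27 and 1.001 in the same order. The NF-kB subunit gene Rela fell in all 3 (-0.63, -0.48 and -0.68), and Nlrc5, the class I transactivator, was at 8.86 FPKM with the combination and 9.83 with nintedanib against 9.58 in controls and fell to 7.76 with radiation (-0.27, adjusted p = 0.0351).

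Of 7 interferon receptor and kinase genes, 2 rose and 0 fell with the combination (Tyk2 0.58 and Ifngr2 0.28), and 2 rose and 1 fell with nintedanib (Tyk2 0.46, Ifnar1 0.16, Ifnar2 -0.29). This is near or below the shares over all genes, of which 47.2% were called with the combination and 41.6% with nintedanib. Radiation alone gave 0 calls with limma, where 17.9% of all genes were called, 0 at an unadjusted p under 0.05 and 0 with voom. Of the 7, 3 were higher with radiation with no overlap, against 17.4% of all genes.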

How the data were processed

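RNA-seq values of 12 MC38 libraries were analysed. The authors deposited 1 table of FPKM values per gene with identifiers, coordinates and gene model lengths, per the file headers. Libraries were made with a SMARTER mRNA kit, per the labels' protocols, and the submitters' processing notes name GRCm38 (mm10) as the build. Not given in the sources used here: aligner, counting tool, strandedness, and what was done with reads mapping to several genes. Groups and replicate numbers came from sample titles, which the value columns carry.

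FPKM multiplied by gene length were whole multiples of 1 step in 100% of nonzero values (tolerance 0.01 of a step), which gave fragments per library; these measure counting error only. Replicates of a group differed by more than sampling noise (chi-square per gene 4.30 to 30.2). log2(FPKM + 1) was fitted with limma 3.58.1 in R 4.3.3 (intensity trend, two-sided, 1 mean per group, 12 libraries), over 13012 genes with at least 1 FPKM in at least 3 libraries. The fit was also run on simulated data with a fixed dispersion and few changed genes, unlike these data. That run checked the code and not the calls made here. The scale understates changes of low genes. P-values measure the spread between these libraries. Levels, ratios and promoter letters were computed with Python 3.11.15.

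All 9 genes were described. From further lists the genes named were mostly among the 4 with the smallest adjusted p per comparison, or were given with their levels. Outside this rule stand the combination values of Raet1d, Rela, Tap1 and Tap2 and the radiation value of Pdia3. Some genes within it, such as Canx, Nfkb1 and Creb1, were not described. Likeness took the 5 highest Pearson r, leaving out predicted genes. The genes and lists were chosen with earlier results of these data known. Alternatives were a pseudocount of 0.1, no filter, rescaling to a common FPKM sum or by median ratios, a replicate block, voom on the recovered fragments, protein-coding genes only, only the 2 groups compared, and leaving out each library.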

Additional observations from a re-analysis of the deposited data

How the results depend on the processing

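Of 833 recomputed differences of the 7 tested genes, 762 kept their direction and side of the threshold, 44 lost a call, 7 gained one and 20 changed sign, 0 of these called. All 6 calls of the combination against control were kept in all settings. With no filter on low values, 3 genes of the set were called for radiation against control and 1 for the combination against nintedanib. The counts over all genes in this setting are not given here. Fitting only the 2 groups left 0 genes of the set and 83 of all genes for the combination against nintedanib. Leaving out 1 library gave 2 to 5 genes of the set and 1145 to 2612 of all genes for radiation against control, and 1 to 4 and 263 to 652 for the combination against nintedanib. For the interaction, all genes called were 0 with a pseudocount of 0.1, 12 without a filter, 4 after rescaling to a common sum or with protein-coding genes only, 2 with voom, and 0 to 5 without 1 library. Mean heavy chain sums as deposited were 535 FPKM with nintedanib and 469 in controls. Rescaling to a common sum raised their log2 ratio to 0.29, a shift larger than the SD between the nintedanib libraries. That SD is a narrow measure, as on the FPKM scale it was 3.01, against 37.1 in controls. Median ratio rescaling changed no call of the 7 genes. Rescaling to a common sum moved the median interaction of all genes to -0.10, against 0.01 as deposited, and the share of higher calls to 60.02% against 47.22% for nintedanib and to 69.79% against 44.82% for radiation.

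Sign changes of uncalled values were the following. After rescaling to a common sum, the interaction was -0.10 for H2-K1 and -0.12 for H2-Q4, and H2-M3 had -0.011 for the combination against nintedanib. With voom the interaction was -0.014 for H2-K1 and -0.044 for H2-Q4. Leaving out 1 library gave interactions of -0.042 to 0.090 for H2-K1, -0.075 to 0.085 for H2-Q4, -0.25 to 0.00079 for H2-M3 and -0.27 to 0.014 for B2m. It also gave -0.14 to 0.12 for H2-M3 in the combination against nintedanib, -0.047 to 0.14 for H2-M3 in the combination against radiation, and -0.0033 to 0.11 for H2-D1 in nintedanib against control. The cause was not tested.

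With the replicate number as a block, 2 genes of the set and 444 of all genes were called for the combination against nintedanib. For radiation against control 4 of the set were called, with the count over all genes not given here. For the interaction 0 of all genes were called. No label says that a number marks a shared day. Deviations of same-numbered libraries correlated at -0.298 to 0.202, over 0.1 in 2 of 15 pairs, and in 3 of 15 comparisons of a library with another group it correlated best with its own number. The numbers were therefore not treated as pairs; whether a number marks 1 run of the experiment is not stated.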

Other observations

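Other class I and class I-like genes were followed as a list of 27, of which 11 were tested. With the combination 7 of these rose, with radiation 4 and with nintedanib 4, and 0 fell, against 22.3%, 8.04% and 19.7% of all genes that rose. Procr, the endothelial protein C receptor with a class I-like fold, was at 26.2 ± 1.21 FPKM with the combination, 17.5 ± 1.26 with radiation and 19.98 ± 0.943 with nintedanib, against 11.7 ± 2.05 in controls (SD, n = 3; log2 differences 1.11, 0.56 and 0.73). Ulbp1, a ligand of the NKG2D receptor of natural killer cells, rose by 0.51, 0.46 and 0.57 in the same order. Raet1d, which encodes another NKG2D ligand, rose with the combination (0.50) and radiation (0.64). Cd1d1, which presents lipids, rose with the combination (0.75) and nintedanib (0.77), and was at 1.34 FPKM with the combination and 1.37 with nintedanib, against 0.316 with radiation and 0.393 in controls.

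Of 11 MHC class II genes, 3 were tested. H2-DMa and H2-DMb1, which load class II molecules in lysosome-like compartments, rose with the combination (0.97 and 0.82) and nintedanib (0.62 and 0.53). Cd74, the class II invariant chain, was at 2.07 ± 0.212 FPKM with radiation against 0.806 ± 0.154 in controls (0.76), and fell to 0.317 ± 0.109 with nintedanib (-0.46, adjusted p = 0.0416).

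H2-K2, an unprocessed pseudogene, was singled out after its values were seen. It was at 6.04 FPKM with the combination, 3.07 with radiation, 6.45 with nintedanib and 2.64 in controls. It rose with nintedanib (log2 difference 1.03, adjusted p = 1.95e-06) and the combination (0.95, adjusted p = 2.71e-06) and had 0.16 with radiation (adjusted p = 0.165).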
